A study of Homo sapiens with 12 samples.

Results

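The genes described are 10 genes of the endoplasmic reticulum (ER) unfolded protein response, taken by name: HERPUD1, XBP1, ATF6, ERN1, EDEM1, SEL1L, SYVN1, CRELD2, SDF2L1 and MANF. They are 10 of the 26365 gene symbols in the deposited table. All 10 passed the filter on low values and were among the 13950 genes tested. HERPUD1 RNA fell to 36.8% of its starting level at 240 min of epidermal growth factor (EGF) in control cells and to 38.9% in cells with an shRNA against LAD1. XBP1 and SYVN1 fell with it by smaller amounts. Of their calls from 0 to 240 min, only that of XBP1 in scramble cells held whichever library was left out. CRELD2 was the 1 gene of the 10 called between the 2 kinds of cells, in the mean of the 3 times and at no single time, and that call did not hold when single libraries were left out.

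RNA was sequenced from HCC70, a human triple-negative breast cancer cell line. The cells stably expressed either an shRNA against LAD1, here called shLAD1 cells, or a scrambled control shRNA, here called scramble cells. Both kinds of cells were kept without serum overnight and then received 50 ng/ml of EGF for 0, 40 or 240 min. The 6 groups were scramble cells at 0, 40 and 240 min and shLAD1 cells at 0, 40 and 240 min, with 2 libraries in each and 12 in all. LAD1 encodes ladinin-1, and the title of the series presents it as a filamin binder that acts on the actin cytoskeleton after EGF. Only 1 shRNA against LAD1 is named, so loss of LAD1 cannot be told apart from another effect of that shRNA. The labels list no group held for 40 or 240 min without EGF, so EGF cannot be told apart from time and handling. The labels do not say whether libraries 1 and 2 of a group came from separate cultures, so the p-values measure no more than the spread of these libraries, which may be technical. In bulk RNA, fewer cells expressing a gene and less RNA per cell cannot be told apart.

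Proteins that enter the secretory pathway fold in the ER, and the unfolded protein response adjusts the folding machinery to the load. ER membrane sensors carry the signal: IRE1 (gene ERN1) removes a short intron from XBP1 mRNA in the cytoplasm, ATF6 is cut in the Golgi to release a transcription factor, and PERK (gene EIF2AK3) phosphorylates the translation factor eIF2α. Their targets include chaperones and the machinery of ER-associated degradation (ERAD), which moves misfolded proteins out of the ER to the proteasome. HERPUD1, EDEM1, SEL1L and SYVN1 belong to that machinery, whereas CRELD2, SDF2L1 and MANF are small ER-resident proteins known as targets of the response.

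The libraries held 12428618 to 16721013 reads. LAD1 RNA in shLAD1 cells was 15.9%, 17.5% and 25.0% of the scramble level at 0, 40 and 240 min. The epithelial genes EPCAM, CDH1, KRT8, KRT18 and KRT19 were present, EPCAM at 2644 to 3552 normalized counts over the 12 libraries. Of the 4 luminal hormone receptor genes, PGR was at 0 to 1 normalized counts and ESR1 at 18 to 29, while GATA3 reached 1198 to 1709 and FOXA1 963 to 2631. Of 9 genes of fibroblasts, blood and endothelium, 7 stayed at or below 28.3, with PTPRC at 0 to 1.1 and COL1A2 at 0 to 1, while CD14 reached 547 to 1354 and COL1A1 243 to 895. The summed level of the 5 epithelial genes was 53595 to 54179 at 0 min and 77389 to 81123 at 240 min in scramble cells, and 58854 to 66170 and 88094 to 95370 in shLAD1 cells. The summed level of 6 basal genes was 48269 to 56201 and 77757 to 91266 in scramble cells, and 55764 to 78663 and 83655 to 109198 in shLAD1 cells. That of the 4 luminal genes was 2971 to 3203 and 2388 to 2687 in scramble cells, and 2759 to 3568 and 2261 to 2909.6 in shLAD1 cells. The sum of the 9 genes of other cells was 1247 to 1459 and 1309 to 1614 in scramble cells, and 1228 to 2012 and 1141 to 1928 in shLAD1 cells. The part of these shifts in the results below was not tested.

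Levels below are normalized counts, which are read counts divided by a size factor per library. Differences are log2 fold changes ± standard error (SE) on the log2(normalized count + 1) scale, with n = 2 libraries per group. They were tested with limma-trend, and a gene counts as called where its p, adjusted by Benjamini-Hochberg over all genes tested, was under 0.05. Where the libraries of 2 groups are said to lie apart, the share of all genes doing so was not computed. With 2 libraries per group such a separation is a description and weak evidence of a change. A replicate block is a term in the fit for library 1 or 2, which pairs the libraries with the same number, and a block within each shRNA pairs them separately in each kind of cell.

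Among the 10 genes, XBP1 and ERN1 form the IRE1 branch. XBP1 lies at chr22:28794555-28800597 on the minus strand (GRCh38, GENCODE 29). The intron that IRE1 removes is shown because the counts cannot tell its 2 forms apart. The first sequence holds in capitals the 26 bases that the annotation places in the intron, at chr22:28796122-28796147 within exon 4 of the transcript shown, and the second is the joined sequence of a transcript without them. The capitals can be moved up to 6 bases upstream with the same joined sequence, so they mark the annotated placement and not the cuts of IRE1.
XBP1 unspliced: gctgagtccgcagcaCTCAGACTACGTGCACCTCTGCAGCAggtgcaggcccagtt
XBP1 spliced: gctgagtccgcagcaggtgcaggcccagtt
The annotation has 7 XBP1 transcripts, 4 with these bases and 2 without. The deposited table gives 1 value per gene symbol, so XBP1 values below are for both forms together and carry no measure of splicing.

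A known DNA element of this response, the ER stress response element (ERSE), was searched for around the starts of the 10 genes. In RefSeq promoter windows of 300 bases (GRCh38.p14, 250 before and 50 after the start), ERSE was read as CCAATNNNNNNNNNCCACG and ERSE-II as ATTGGNCCACG, on both strands. All 10 genes had a window. ERSE was in 27 of 35116 windows (0.0769%) and ERSE-II in 19 (0.0541%). Of the 10 genes, 4 held one of them, and 0.131% of all windows did. That sets genes beside windows, and XBP1 has 2 windows, with ERSE in window 1. The 10 genes were taken by name as genes of this response and the element is a known one of it. The matches are therefore a description and not evidence of enrichment. The 4 stretches are shown 5′ to 3′ on the gene's strand with the match in capitals, since 2 of these genes moved with EGF and 2 did not.
HERPUD1, chr16:56931985-56932075, plus strand: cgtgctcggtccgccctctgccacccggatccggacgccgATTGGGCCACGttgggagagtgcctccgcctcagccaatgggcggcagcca
XBP1, chr22:28800570-28800661, minus strand: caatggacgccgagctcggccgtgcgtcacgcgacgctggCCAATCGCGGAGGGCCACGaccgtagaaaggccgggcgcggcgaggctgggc
CRELD2, chr22:49918514-49918612, plus strand: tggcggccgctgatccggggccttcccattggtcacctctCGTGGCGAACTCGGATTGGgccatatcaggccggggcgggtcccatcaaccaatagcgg
SDF2L1, chr22:21642074-21642164, plus strand: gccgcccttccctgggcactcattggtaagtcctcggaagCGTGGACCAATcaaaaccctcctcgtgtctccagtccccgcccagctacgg
HERPUD1 holds ERSE-II with its first base 117 bases before the start, and XBP1 holds ERSE 52 bases before. CRELD2 has ERSE on the opposite strand, 80 bases before the start, and SDF2L1 has ERSE-II on the opposite strand, 188 bases before. The shorter sequence CCACG, which lies within both elements, was in 8 of the 10 genes and in 38.1% of all windows. Neither TGACGTCA (1.85% of windows) nor TGACGTGG (0.729%) occurred in the windows of the 10 genes. A match describes these letters and is not evidence that a factor bound there.

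The first question was how the 10 genes responded to EGF. HERPUD1 encodes an ER membrane protein with a ubiquitin-like domain that works with the HRD1 ligase in ERAD, and lies at chr16:56932048-56944863. In scramble cells it had 1147 and 1223 normalized counts at 0 min, 1641 and 1636 at 40 min, and 457 and 414 at 240 min. In shLAD1 cells it had 1166 and 1105 at 0 min, 1568 and 1725 at 40 min, and 499 and 385 at 240 min. In both kinds of cells the 40 min libraries were the highest and the 240 min libraries the lowest, with no overlap between times. From 0 to 240 min HERPUD1 fell by 1.44 ± 0.12 on the log2 scale in scramble cells (adjusted p = 0.00015). In shLAD1 cells it fell by 1.37 ± 0.12 over the same time (adjusted p = 0.000201). From 40 to 240 min it fell by 1.91 ± 0.12 in scramble cells (adjusted p = 3.98e-05), and in shLAD1 cells it fell by 1.90 ± 0.12 (adjusted p = 7.72e-05).

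**Figure D1:**
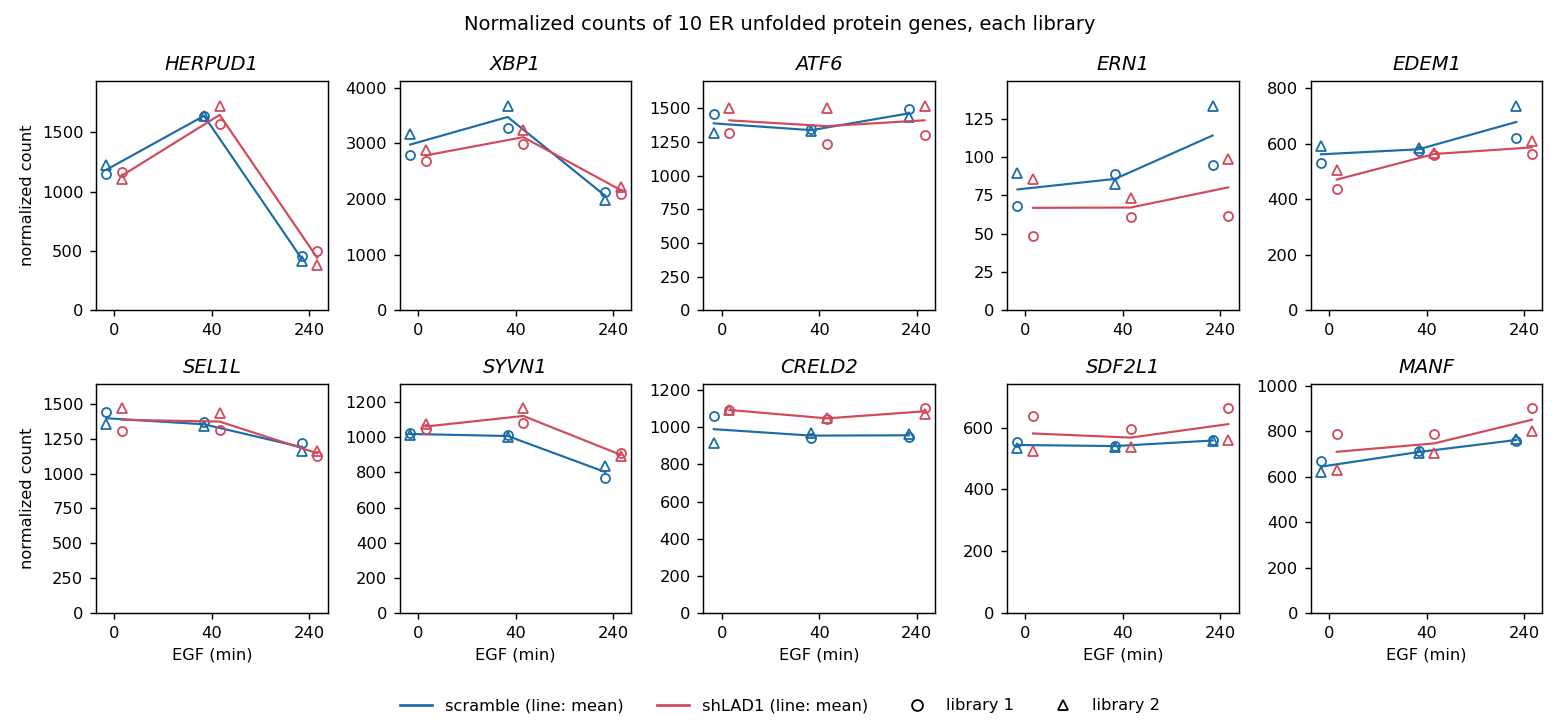
Normalized counts of the 10 genes against minutes of EGF (times evenly spaced on the axis), with circles for library 1, triangles for library 2 and lines through the group means; blue is scramble and red is shLAD1. HERPUD1 spans 385 to 1725 over the 12 libraries, the widest range in proportion of the 10 genes (4.48 times), against 917 to 1102 for CRELD2.

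XBP1 encodes the transcription factor of the IRE1 branch. In scramble cells it had 2786 and 3175 normalized counts at 0 min, 3272 and 3681 at 40 min, and 2128 and 1988 at 240 min. In shLAD1 cells the values were 2683 and 2888, 2984 and 3243, and 2099.5 and 2221. The 240 min libraries were below all others of the same kind of cell. XBP1 fell by 0.53 ± 0.09 on the log2 scale from 0 to 240 min in scramble cells (adjusted p = 0.00427). The fall in shLAD1 cells was by 0.37 ± 0.09 (adjusted p = 0.0244). That second call was lost when any 1 of 3 of the 4 shLAD1 libraries at 0 and 240 min was left out, namely library 2 at 0 min (adjusted p = 0.131), library 1 at 240 min (0.111) or library 2 at 240 min (0.0679). It was also lost when only the 2 groups compared were fitted (0.107).

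ERN1, the gene of the sensor IRE1 itself (chr17:64039142-64130819, minus strand), was read at 47 to 120 reads per library and was the least precisely measured of the 10. It had 68.3 and 89.5 normalized counts at 0 min, 88.8 and 82.7 at 40 min and 94.6 and 134 at 240 min in scramble cells. The difference from 0 to 240 min there was 0.52 ± 0.33 (adjusted p = 0.314), and its 95% confidence interval ran from -0.22 to 1.25. In shLAD1 cells, the libraries at the same 3 times held 48.3 and 85.5, 60.8 and 73.3, and 61.4 and 99.0 normalized counts, and the times overlapped. ATF6, the sensor cut in the Golgi (chr1:161766294-161964070), stayed between 1232 and 1521 normalized counts over the 12 libraries. Its difference from 0 to 240 min was 0.08 ± 0.12 in scramble cells (adjusted p = 0.712; 95% interval -0.19 to 0.34).

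SYVN1 and SEL1L encode the core of an ERAD complex, the ubiquitin ligase HRD1 and its partner. SYVN1 (chr11:65121780-65134533, minus strand) had 1026 and 1009.7 normalized counts at 0 min, 1012 and 1000.3 at 40 min and 765 and 837 at 240 min in scramble cells. In shLAD1 cells it had 1044 and 1076, 1077 and 1163, and 908 and 890.5. In both kinds of cells the 240 min libraries lay below the others. From 0 to 240 min SYVN1 fell by 0.35 ± 0.07 in scramble cells (adjusted p = 0.00965), and in shLAD1 cells it fell by 0.24 ± 0.07 (adjusted p = 0.0489). With only the groups compared fitted, the shLAD1 call was lost (adjusted p = 0.208). The scramble call was lost without library 1 at 0 min (adjusted p = 0.0603), library 2 at 0 min (0.0519) or library 1 at 240 min (0.0673). The shLAD1 call was lost without any 1 of the 4 libraries (adjusted p = 0.104 to 0.185), with DESeq2 (0.065) and without the filter on low values (0.086).

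SEL1L (chr14:81471549-81533861, minus strand) had 1439 and 1355 normalized counts at 0 min and 1219 and 1160.1 at 240 min in scramble cells, and 1304 and 1468 at 0 min and 1128 and 1165 at 240 min in shLAD1 cells. The 240 min libraries again lay below those at 0 min. The difference was -0.23 ± 0.08 in scramble cells (adjusted p = 0.0739), which passed with the replicate block (adjusted p = 0.0361). In shLAD1 cells SEL1L fell by 0.27 ± 0.08 (adjusted p = 0.0448). That call was lost without library 2 at 0 min, library 1 at 240 min or library 2 at 240 min. It was also lost without the filter on low values (adjusted p = 0.069) and with only the groups compared fitted (0.211).

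EDEM1, which picks out misfolded glycoproteins for ERAD (chr3:5187646-5219957), lay on the other side. It had 532 and 591 normalized counts at 0 min, 574 and 585 at 40 min and 619 and 737 at 240 min in scramble cells. In shLAD1 cells the values were 436 and 505, 561 and 565, and 563 and 610.3. In both kinds of cells the 240 min libraries were above those at 0 min. The difference was 0.27 ± 0.11 in scramble cells (adjusted p = 0.126) and 0.32 ± 0.11 in shLAD1 cells (adjusted p = 0.0785), and with the replicate block both were called (adjusted p = 0.0274 and 0.0127).

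The 3 small ER-resident proteins differed among themselves. MANF, a protein of the ER lumen that can also be secreted (chr3:51385047-51389397), had 669.7 and 620.0 normalized counts at 0 min and 759.9 and 765 at 240 min in scramble cells, and 789 and 632 at 0 min and 901 and 801 at 240 min in shLAD1 cells. The 240 min libraries were above those at 0 min in both. The difference was 0.24 ± 0.11 in scramble cells (adjusted p = 0.178) and 0.27 ± 0.11 in shLAD1 cells (adjusted p = 0.146; 0.0357 with the replicate block). CRELD2 (chr22:49918167-49927540) differed by -0.05 ± 0.08 and -0.01 ± 0.08, and SDF2L1 (chr22:21642261-21644298), a partner of ER chaperones, by 0.04 ± 0.11 and 0.08 ± 0.11. The 95% intervals of these last 4 differences lay within -0.22 and 0.33.

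At 240 against 0 min in scramble cells, 3 of the 10 genes were called, all lower, where 20.2% of all genes tested were called and 8.44% were called lower. The replicate block called 5 of the 10. In shLAD1 cells 4 of the 10 were called, all lower, against 18.5% of all genes and 7.76% lower. The replicate block called 6 of the 10 there, with EDEM1 and MANF higher, and leaving out 1 library left 1 of the 10 called in 3 of 4 cases. The block within each shRNA added ERN1 (adjusted p = 0.0218), EDEM1 (0.00475), SEL1L (0.000941) and MANF (0.00379) in scramble cells, and EDEM1 (0.00113) and MANF (0.00175) in shLAD1 cells. The 3 genes HERPUD1, XBP1 and SYVN1 were called lower from 40 to 240 min in each kind of cell, against 18.5% of all genes in scramble (8.34% lower) and 16.4% in shLAD1 cells (7.56% lower). Of these, SYVN1 lost its call in scramble cells without library 1 or 2 at 40 min or library 1 at 240 min (adjusted p = 0.0699 to 0.0849), and in shLAD1 cells without library 2 at 40 min or either library at 240 min (0.0545 to 0.106). In shLAD1 cells XBP1 (adjusted p = 0.0722) and SYVN1 (0.158) lost the call from 40 to 240 min when only the groups compared were fitted. The median difference of the 10 genes from 0 to 240 min was -0.0036 in scramble cells and -0.0054 in shLAD1 cells, next to -0.0173 and -0.0084 over all genes tested. Among all genes in scramble cells 1635 were called higher and 1178 lower at 240 min. When libraries were scaled to their total counts, the numbers were 1141 and 2205 and the median of all genes moved to -0.14. HERPUD1 then differed by -1.57 and XBP1 by -0.66, both below that median.

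**Figure D2:**
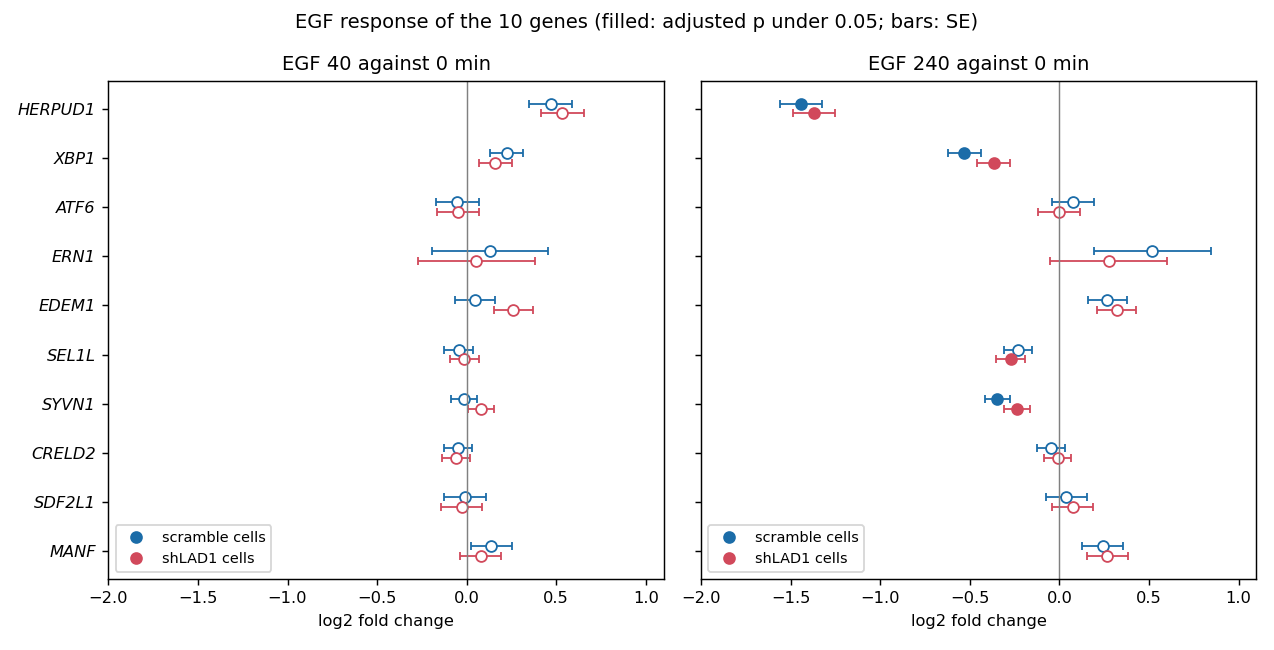
Log2 fold changes of the 10 genes at 40 and 240 min of EGF against 0 min, with bars for the SE, in scramble (blue) and shLAD1 cells (red); filled points have an adjusted p under 0.05. No point is filled at 40 min, and at 240 min the filled points are all to the left of 0, HERPUD1 farthest at -1.44 and -1.37.

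At 40 min none of the 10 genes was called by limma in either kind of cell, where 0.853% of all genes in scramble and 1.04% in shLAD1 cells were. In each kind of cell 2 of the 10 had an unadjusted p under 0.05. edgeR called 0 of the 10 and DESeq2 called 1, HERPUD1, in each. HERPUD1 differed by 0.47 ± 0.12 in scramble cells (limma adjusted p = 0.232; DESeq2 0.0303) and by 0.53 ± 0.12 in shLAD1 cells (limma adjusted p = 0.104; DESeq2 0.00406; 0.0318 with the replicate block). XBP1 differed by 0.22 ± 0.09 and 0.16 ± 0.09 (adjusted p = 0.995 and 1). The block within each shRNA called HERPUD1 (adjusted p = 0.0172) and XBP1 (0.0229) in scramble cells, and HERPUD1 (0.00571) and EDEM1 (0.0432) in shLAD1 cells.

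The mean response of both kinds of cells, a comparison added after the values were seen, uses 4 libraries at each time. HERPUD1 then rose by 0.50 ± 0.08 at 40 min (adjusted p = 0.0146), the 1 gene of the 10 called, against 1.88% of all genes (1.74% higher). Leaving out any 1 of 6 of the 8 libraries ended that call, namely all 4 scramble libraries and library 2 of the shLAD1 cells at 0 and at 40 min (adjusted p = 0.0553 to 0.0839). At 240 min 6 of the 10 were called, 4 lower and 2 higher, against 35% of all genes, 16.3% lower and 18.7% higher. HERPUD1 fell by 1.41 ± 0.08, XBP1 by 0.45 ± 0.07, SYVN1 by 0.29 ± 0.05 and SEL1L by 0.25 ± 0.06 (adjusted p = 8.63e-06, 0.000824, 0.00211 and 0.00797). EDEM1 rose by 0.29 ± 0.08 (adjusted p = 0.0174) and MANF by 0.25 ± 0.08 (adjusted p = 0.0366). With total-count scaling neither rise was called (adjusted p = 0.101 and 0.249), and that of MANF was not called with upper-quartile scaling (0.067) or edgeR (0.0506). EDEM1 lost its call without library 1 of either kind of cell at 0 min or library 2 of either kind at 240 min (0.0555 to 0.0661). MANF lost it without any 1 of the 4 scramble libraries, library 2 of the shLAD1 cells at 0 min or their library 1 at 240 min (0.059 to 0.115).

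The next question was whether shLAD1 changed the 10 genes. At single times no gene of the 10 was called by limma, edgeR or DESeq2, where limma called 1.56% of all genes at 0 min, 1.65% at 40 min and 0.953% at 240 min. These were 217, 230 and 133 genes, and leaving out 1 library gave 4 to 39, 2 to 50 and 4 to 56. The block within each shRNA called EDEM1 at 0 min (adjusted p = 0.0109) and XBP1 at 40 min (0.0365). At 240 min it called ERN1 (0.0329), EDEM1 (0.0416), SYVN1 (0.0392) and CRELD2 (0.0304). For shLAD1 against scramble, that block takes the spread between libraries 1 and 2 of each kind of cell out of the error. Its p-values there do not measure that spread, and it called 4259, 4315 and 4127 of all genes at 0, 40 and 240 min. The number of the 10 with an unadjusted limma p under 0.05 was 1 at 0 min, 0 at 40 min and 2 at 240 min. HERPUD1 differed between shLAD1 and scramble cells by -0.06 ± 0.12 at 0 min, 0.01 ± 0.12 at 40 min and 0.01 ± 0.12 at 240 min. The 95% interval of its mean difference over the 3 times ran from -0.17 to 0.14. XBP1 differed by -0.10 ± 0.09, -0.16 ± 0.09 and 0.07 ± 0.09 at the 3 times.

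Averaged over the 3 times, CRELD2 was the 1 gene of the 10 called, against 18.6% of all genes (9.25% higher). CRELD2 is an ER-resident protein with EGF-like domains. It had 1063 and 917 normalized counts in scramble and 1094 and 1094 in shLAD1 cells at 0 min. At 40 min the values were 942 and 969 against 1045 and 1052, and at 240 min 950.1 and 964 against 1102 and 1071. All 6 shLAD1 libraries were above the scramble libraries of the same time. This was not particular to CRELD2, since SYVN1 also lay above at every time and EDEM1 lay below at every time. The share of all genes lying apart at every time was not computed. Same-numbered libraries of an shRNA deviated together over the times (correlations of 0.645 to 0.734), so the 3 times are not separate comparisons. CRELD2 was higher in shLAD1 cells by 0.15 ± 0.04 (adjusted p = 0.043). That fit counts the 6 libraries of each kind of cell as independent, so its SE and p may be too small. The call was lost without any 1 of 11 of the 12 libraries (adjusted p = 0.0568 to 0.101), the exception being library 1 of the scramble cells at 0 min. It was also lost without the filter on low values (0.0665), and when each shRNA and library number was averaged to 1 value (0.453), a comparison of 2 with 2 in which no gene was called.

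**Figure D3:**
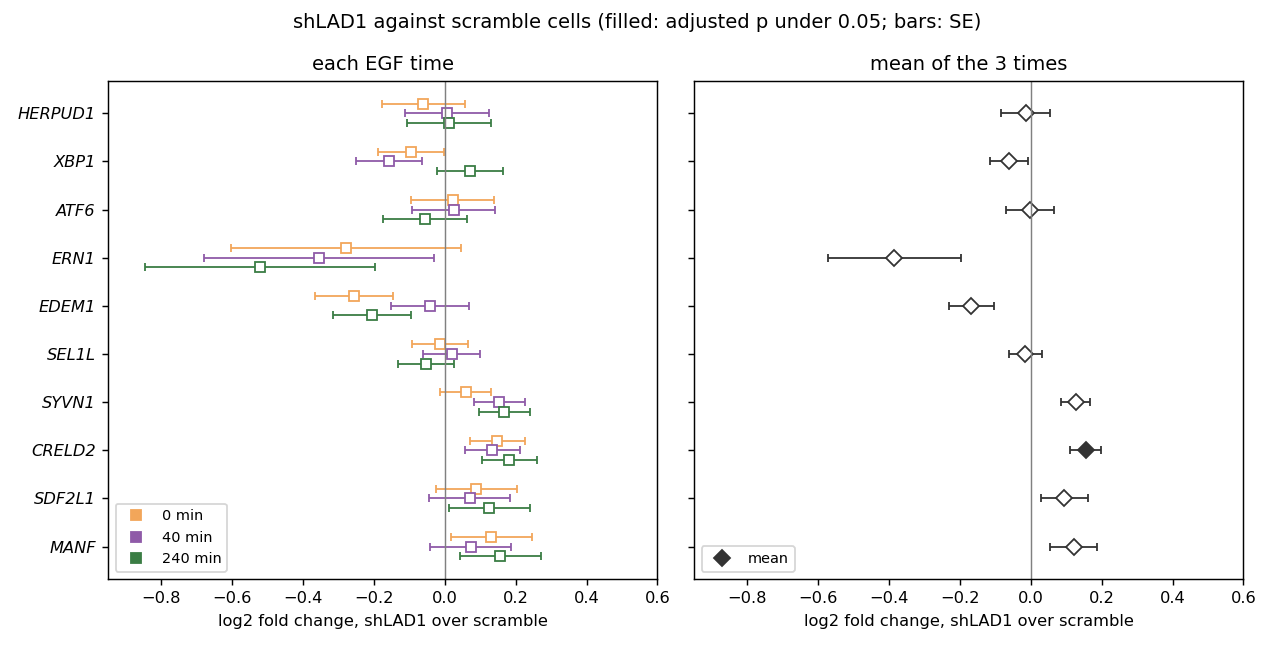
Log2 fold change of shLAD1 over scramble cells for the 10 genes, at each EGF time (left; orange 0, purple 40, green 240 min) and as the mean of the 3 times (right), with bars for the SE; filled points have an adjusted p under 0.05. The only filled point is the mean for CRELD2, at 0.15, and the widest bars are those of ERN1.

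Other members lay to either side of 0 in shLAD1 cells without being called. SYVN1 differed by 0.13 ± 0.04 over the 3 times (adjusted p = 0.0628), EDEM1 by -0.17 ± 0.06 (adjusted p = 0.0985) and ERN1 by -0.39 ± 0.19 (adjusted p = 0.182). With the replicate block these 3 and CRELD2 were called (adjusted p = 0.0255, 0.0179 and 0.0337 for SYVN1, EDEM1 and ERN1), and the block within each shRNA also called MANF (0.0104). As at single times, the block within each shRNA leaves the spread between libraries 1 and 2 of a kind of cell out of its p-values. MANF differed by 0.12 ± 0.07 and SDF2L1 by 0.09 ± 0.07. Both had library 1 above library 2 in shLAD1 cells at every time, SDF2L1 with 638 and 524 normalized counts at 0 min, 597 and 539 at 40 min and 662 and 560.3 at 240 min. In scramble cells the 2 libraries of SDF2L1 were 555 and 533, 542 and 539, and 559 and 557.

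The response to EGF was then compared between the 2 kinds of cells. None of the 10 genes, and none of the 13950 genes tested, differed in response at 40 or 240 min by limma, edgeR or DESeq2 without a block. With the block within each shRNA limma called 11 genes at 40 min and 27 at 240 min, and 0 of the 10. By limma without it 99 genes at 40 min and 133 at 240 min had an unadjusted p under 0.05, none of them among the 10. HERPUD1 responses differed by 0.07 ± 0.17 at each time, with 95% intervals from -0.31 to 0.44 at 40 min and -0.31 to 0.45 at 240 min. The XBP1 response at 240 min differed by 0.17 ± 0.13 (95% interval -0.13 to 0.46). With 2 libraries per group, differences inside these intervals were not excluded, and no detection limit was computed.

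The other genes of the pathway were counted in 6 lists. In the PERK branch and integrated stress response, which lowers translation and induces ATF4 and its targets, 5 of 9 genes fell and 1 rose from 0 to 240 min in scramble cells, 66.7% of the list against 20.2% of all genes. CHAC1, which breaks down glutathione, fell by 2.75 ± 0.21 (adjusted p = 0.000128), and SESN2, a stress-induced inhibitor of mTORC1 signalling, fell by 2.19 ± 0.16 (adjusted p = 0.000107). DDIT3, which encodes CHOP, fell by 1.06 ± 0.17 (adjusted p = 0.00244). EIF2AK3, the gene of PERK, fell by 0.37 ± 0.10 (adjusted p = 0.0239), and ATF3 fell by 1.61 ± 0.39 (adjusted p = 0.022). PPP1R15A, a subunit of the phosphatase that reverses eIF2α phosphorylation, rose by 0.68 ± 0.13 (adjusted p = 0.0065). ATF4 itself differed by -0.22 ± 0.09 (adjusted p = 0.116). The median of the 9 genes was -0.37, next to -0.02 over all genes. In shLAD1 cells 4 of the 9 fell and 1 rose, 55.6% against 18.5%.

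From 40 to 240 min 8 of these 9 genes fell in scramble and 7 in shLAD1 cells, 88.9% and 77.8% of the list against 18.5% and 16.4% of all genes. At 40 min 2 of the 9 rose in scramble cells, PPP1R15A by 2.35 ± 0.13 and ATF3 by 2.81 ± 0.39 (adjusted p = 2.71e-05 and 0.0148), and PPP1R15B also rose in shLAD1 cells (0.54 ± 0.09, adjusted p = 0.0263). No gene of the other 5 lists was called at 40 min in either kind of cell by limma.

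Of the ER chaperones and folding enzymes, 18 of 19 were tested, and 2 rose and 1 fell from 0 to 240 min in scramble cells. HSPA5, the major ER chaperone BiP, differed by -0.05 ± 0.11 (adjusted p = 0.814). The oxidase gene ERO1A rose by 0.38 ± 0.06 (adjusted p = 0.00194) and the co-chaperone gene DNAJB11 by 0.52 ± 0.14 (adjusted p = 0.0307), while DNAJB9, another co-chaperone gene and a known XBP1 target, fell by 0.62 ± 0.13 (adjusted p = 0.0119). Among 21 further ERAD genes 3 rose and none fell: VIMP, which anchors the ATPase VCP at the ER membrane, by 0.69 ± 0.10, the ubiquitin-conjugating enzyme gene UBE2G2 by 0.53 ± 0.07 and the channel component gene DERL1 by 0.32 ± 0.06 (adjusted p = 0.0015, 0.00134 and 0.0077). Their directions differed from that of SYVN1 in the same cells. Of 7 genes for ATF6 processing and related ER-anchored factors 2 fell, CREB3L2 by 1.05 ± 0.18 and CREB3L4 by 0.67 ± 0.14 (adjusted p = 0.00367 and 0.0108). Of 15 translocon genes 2 rose, SRPRB by 0.46 ± 0.12 and SSR3 by 0.26 ± 0.08 (adjusted p = 0.0296 and 0.0471), and of 13 genes of COPII export 0 were called. The shares called were 16.7% for chaperones, 14.3% for ERAD, 28.6% for the ATF6 list, 13.3% for the translocon and 0% for COPII export. Of all genes 20.2% were called. The share of the ATF6 list was above that by 2 of 7 genes called, too few to set the list apart. The list medians were 0.02 for chaperones, 0.05 for ERAD, -0.30 for the ATF6 list, 0.10 for the translocon and 0.12 for COPII export. In shLAD1 cells the numbers higher and lower were 2 and 1 for chaperones, 3 and 1 for ERAD, 0 and 2 for the ATF6 list, 2 and 0 for the translocon, and 0 and 0 for COPII export.

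**Figure D4:**
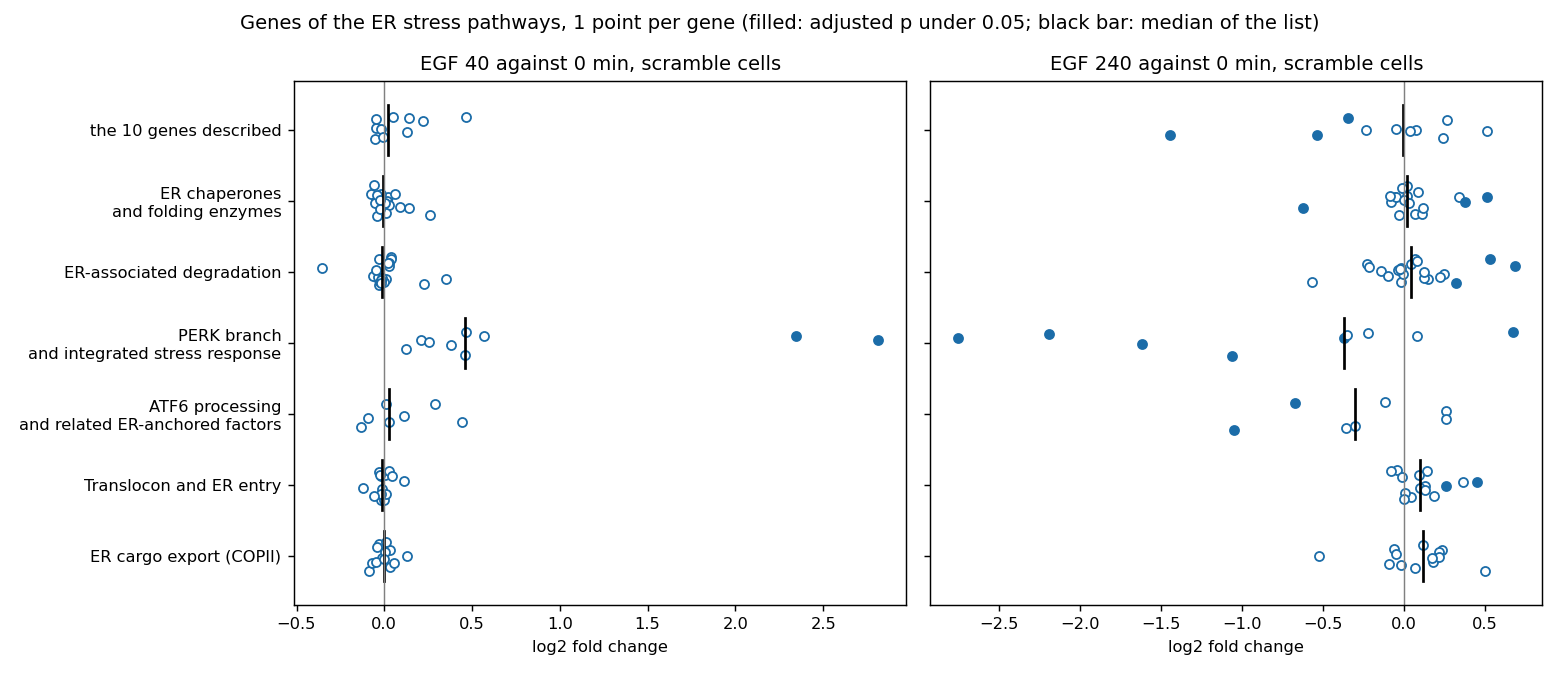
Log2 fold changes at 40 and 240 min of EGF against 0 min in scramble cells for the 10 genes and the 6 pathway lists, 1 point per gene, filled where the adjusted p was under 0.05, with a black bar at each list's median. At 240 min the PERK list has its median at -0.37 and CHAC1 farthest to the left at -2.75, while the medians of the chaperone and ERAD lists lie at 0.02 and 0.05.

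Between shLAD1 and scramble cells, ERO1A was the 1 gene of the 6 lists called at single times. It was lower by limma at 0 min (-0.32 ± 0.06, adjusted p = 0.0332), at 40 min (-0.30 ± 0.06, adjusted p = 0.0396) and at 240 min (-0.40 ± 0.06, adjusted p = 0.0176). Whether the ERO1A calls at single times hold under the alternatives was not examined. With only the groups compared, 1 gene of all tested was called at each of these times. Averaged over the 3 times, the numbers called higher and lower were 2 and 1 for chaperones, 1 and 2 for ERAD, 1 and 0 for the PERK list, 3 and 0 for the ATF6 list, 2 and 1 for the translocon and 3 and 0 for COPII export. Those are 16.7%, 14.3%, 11.1%, 42.9%, 20% and 23.1% of the lists, where 18.6% of all genes were called. CALR (0.23 ± 0.05, adjusted p = 0.0197) and PDIA4 (0.25 ± 0.05, adjusted p = 0.00673), both ER folding proteins, were higher, as CRELD2 was, and HSPA5 differed by 0.20 ± 0.07 (adjusted p = 0.0618). As for CRELD2, the fit over the 3 times counts libraries that deviated together as independent. None of these genes was called when each shRNA and library number was averaged to 1 value.

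Across the 12 libraries, the 5 genes whose log2 levels followed HERPUD1 most closely among 10231 genes were LNX1 (Pearson r = 0.984), GRHL2 (0.982), KIF23 (0.981), CHAC1 (0.98) and TBC1D31 (0.978). The libraries share their EGF times, so the values are a description and carry no p. Among the other 9 genes described, r with HERPUD1 was 0.947 for XBP1, 0.866 for SYVN1 and 0.837 for SEL1L, and it was negative for CRELD2 (-0.069), SDF2L1 (-0.274), ATF6 (-0.375), EDEM1 (-0.495) and MANF (-0.523). ERN1 was below the mean of 100 normalized counts required here.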

How the data were processed

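Per the labels' protocols, poly-A RNA of the 12 libraries was prepared with the TruSeq kit, version 2. STAR, DESeq2 and hg19 are named in the submitters' processing notes; not given in the sources used here are versions, the counter, annotation, model formula and use of strand. The signal columns that the authors deposited are read counts divided by a size factor per library: 100% of values were whole reads within 0.001. The deposited table also holds log2 fold changes with standard errors, a test score and p-values for a comparison it does not name, which were not used for the results.

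limma-trend (limma 3.58.1, R 4.3.3, robust) was fitted to log2(normalized count + 1), with a mean per group over all 12 libraries, for the 13950 genes that reached 10 normalized counts in 2 or more libraries. Log2 fold changes on this scale understate the changes of low genes. Adjustment was over all genes within each of 12 comparisons and 2 added later. edgeR 4.0.16 and DESeq2 1.42.0 were run on the recovered reads as alternatives. The fits were tested on simulated data. The 10 genes, the pathway lists and the rules for named genes were chosen with earlier results of these data known. The named genes are the 10, up to 4 called genes per list and comparison with the smallest adjusted p, HSPA5, EIF2AK3, ATF4, DDIT3 and LAD1, and the 5 genes most like HERPUD1. ATF3 at 240 min lies outside this rule and was named after its values were seen.

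Libraries of a group differed by 8.59 to 21.3 chi-square per degree of freedom, more than counting noise. Library numbers paired the samples. Same-numbered libraries deviated together from their group means, with correlations of 0.645 to 0.734 within an shRNA (6 group pairs) and 0.247 to 0.307 across shRNAs (9 group pairs). The replicate block on that number is reported where it changes a call. Coordinates and transcripts are from GENCODE 29 and promoter windows from RefSeq, both GRCh38, and were not used in counting.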

Additional observations from a re-analysis of the deposited data

How the results depend on the processing

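Of 2200 values of the 10 genes under alternatives, 2095 kept their side of the threshold, 61 lost a call and 44 gained one. Among called values 0 changed sign, and 130 of the 2095 changed sign without being called either way. HERPUD1 was called lower at 240 min, against 0 and against 40 min, under all 14 alternatives in each kind of cell. The number of the 10 genes called moved by over 1.5 times, or from or to 0, as follows, and by 1.5 times or less elsewhere. DESeq2 called 1 at 40 min in scramble and 1 in shLAD1 cells, where limma called 0. With the replicate block it was 5 at 240 against 0 min in scramble cells, 1 at 40 min in shLAD1 cells and 4 for shLAD1 against scramble over the 3 times. With a replicate block within each shRNA it was 2, 7 and 5 for 40 against 0, 240 against 0 and 240 against 40 min in scramble cells, 2 and 5 for 40 against 0 and 240 against 40 min in shLAD1 cells, 1, 1 and 4 for shLAD1 against scramble at 0, 40 and 240 min, 5 over the 3 times, and 2 at 40 min over both kinds of cells. Without the filter it was 2 at 240 against 0 min in shLAD1 cells and 0 for the knockdown over the 3 times, which was also 0 with a mean per cell population. With only the groups compared it was 1 for both 240 min comparisons in shLAD1 cells. Leaving out 1 library gave 1 to 4 at 240 against 0 min in shLAD1 cells, and 0 to 1 both for the knockdown over the 3 times and at 40 min over both kinds of cells. Among all genes tested, the counts called in the 6 EGF comparisons within a kind of cell, in the order 40 against 0, 240 against 0 and 240 against 40 min, were 119, 2813 and 2580 in scramble and 145, 2585 and 2288 in shLAD1 cells. With the replicate block they were 202, 4557 and 4251, and 274, 4249 and 4004. With only the groups compared those of shLAD1 cells were 30, 313 and 164. Without 1 library the 2813 became 1355 to 1699 and the 2585 became 1300 to 1888, and the 217, 230 and 133 of the knockdown at 0, 40 and 240 min became 4 to 39, 2 to 50 and 4 to 56. For shLAD1 against scramble at 0, 40 and 240 min, 217, 230 and 133 genes became 1600, 1578 and 1462 with the block, 510, 538 and 380 with DESeq2 and 1 each with only the groups compared. Over the 3 times 2588 became 5034 with the block and 0 with a mean per cell population. A block within each shRNA called 530 to 8343 genes in these comparisons and the 2 added ones, and 11 and 27 genes where 0 differed in their response at 40 and 240 min. In shLAD1 cells total-count scaling turned 1502 higher and 1083 lower into 1016 and 1919. The causes were not tested. ERN1 had 47 to 120 reads a library, the fewest of the 10 genes.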
